A study of Homo sapiens with 8 samples.

Results

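The 64 genes described here code for amino acid and peptide transporters and their relatives. They are the protein-coding genes of the solute carrier families SLC1, SLC3, SLC6, SLC7, SLC15, SLC36, SLC38 and SLC43, taken by symbol from the 58302 gene IDs of the deposited count tables. RNA was sequenced from Caco-2/15 cells, a human colon cancer line that takes on enterocyte-like features once its cultures are confluent. The 4 groups, of 2 libraries each, were compared, namely Z1flag cells 7 days after confluence (Pc), Z1flag cells before confluence (Sc), Z2flag Pc cells and Z2flag Sc cells. Z1flag cells carry a Flag tag on 1 copy of H2AFZ, the gene of the histone variant H2A.Z.1, and Z2flag cells on 1 copy of H2AFV, the gene of H2A.Z.2. Every library comes from a tagged, gene-edited population, so no untagged cells are among the groups, and the labels do not say whether each line is 1 clone. The labels do not give the culture medium or its amino acids, and these files hold RNA counts only, with no measure of protein or of transport.

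Enterocytes take up the products of protein digestion across the brush border as free amino acids and as small peptides, and release amino acids into the blood across the basolateral membrane. Apical uptake is driven by sodium or proton gradients (SLC6A19, SLC15A1) or by exchange (SLC3A1 with SLC7A9). Basolateral release uses obligatory exchangers, in which a light chain of the SLC7 family is held at the membrane by the heavy chain SLC3A2, and uniporters of the SLC43 family. Growing cells rely on another set, among them SLC7A5 for large neutral amino acids, SLC38A1 for glutamine, and SLC7A11 for cystine.

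Depth was 17063826 to 40881682 gene counts per library, and the 64 genes together took 3221 to 3785 CPM (counts scaled to a common library size with TMM factors) in the Pc libraries and 3970 to 4704 CPM in the Sc libraries. The CPM sums did not overlap, but sums per kb of exon did, at 573 to 667 CPM per kb in the Pc and 659 to 761 CPM per kb in the Sc libraries. The epithelial markers EPCAM (651 to 831 CPM in Pc, 439 to 565 CPM in Sc libraries), CDH17 (417 to 775 and 296 to 361 CPM) and VIL1 (418 to 646 and 501 to 632 CPM) were high in all libraries, while KRT20 and CDX1 stayed at or below 1.38 and 0.189 CPM. Of 9 tested epithelial markers 5 were called higher and 3 lower over both lines (27.8% and 27.5% of all tested genes were). The lower ones were KRT8 (1138 to 3631 CPM in Pc, 5866 to 7122 CPM in Sc libraries), KRT18 (505 to 1791 and 3448 to 4551 CPM) and HNF4A (137 to 246 and 427 to 529 CPM). The summed level of the epithelial markers was 5131 to 8563 CPM in Pc and 12078 to 14273 CPM in Sc libraries. Over both lines, beside the same shares of all tested genes, fibroblast markers gave 1 higher and 3 lower of 5 tested (72.2 to 86.9 CPM in Pc, 183 to 233 CPM in Sc libraries). Leukocyte markers gave 1 and 0 of 4, and endothelial markers 2 and 0 of 2. Markers of the kidney proximal tubule gave 2 and 1 of 4 (116 to 208 CPM in Pc, 545 to 1002 CPM in Sc libraries). That sum was mostly LRP2, the lower one (109 to 196 CPM in Pc, 540 to 1000 CPM in Sc libraries), while SLC34A1 and SLC22A8 were higher. Postconfluent Z1flag replicate 1 stood apart from the other Pc libraries on the second principal component, at 73.9 against -55.7 to -8.00, and had 31.4% of its reads in no feature, against 20.6% to 23.4% in the other Pc libraries. Results that rest on it are given with and without it. In bulk RNA, fewer cells of a kind and less RNA per cell cannot be told apart.

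Of the 64 genes, 44 had enough counts to be tested (edgeR quasi-likelihood test, Benjamini-Hochberg adjustment over 18240 genes, threshold 0.05), and 20 did not. In Z1flag cells 17 of the 44 were higher in Pc than in Sc and 13 were lower, while 21.3% of all tested genes were called higher and 19.1% lower. In Z2flag cells 10 were higher and 12 lower, against 18.3% and 19.3% of all tested genes. A total of 10 genes were called higher in both lines (14.4% of all tested genes were) and 11 were called lower in both (14%), which makes 21 with the same direction (28.4%). None was called in opposite directions (0.00548% of all tested genes were). A further 9 genes passed in Z1flag cells alone (12.1%) and 1 in Z2flag cells alone (9.23%). Without regard to direction the counts were 30 in Z1flag (40.5% of all tested genes), 22 in Z2flag (37.6%) and 30 for the mean of both lines (55.4%). The Pc and Sc libraries did not overlap for 32 of the 44 genes in Z1flag and 35 in Z2flag cells, while 68.7% and 77.5% of all tested genes were without overlap. Leaving out either Sc Z1flag library left fewer genes called higher in Z1flag cells, among these genes and over all tested genes alike. The median log2 fold change of the 44 genes, 0.09 in Z1flag and -0.07 in Z2flag cells, was close to that of all tested genes (0.04 and -0.05). With 2 libraries per group, and no statement that they came from separate cultures, the p-values measure the spread between these samples, which may be technical.

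**Figure D1:**
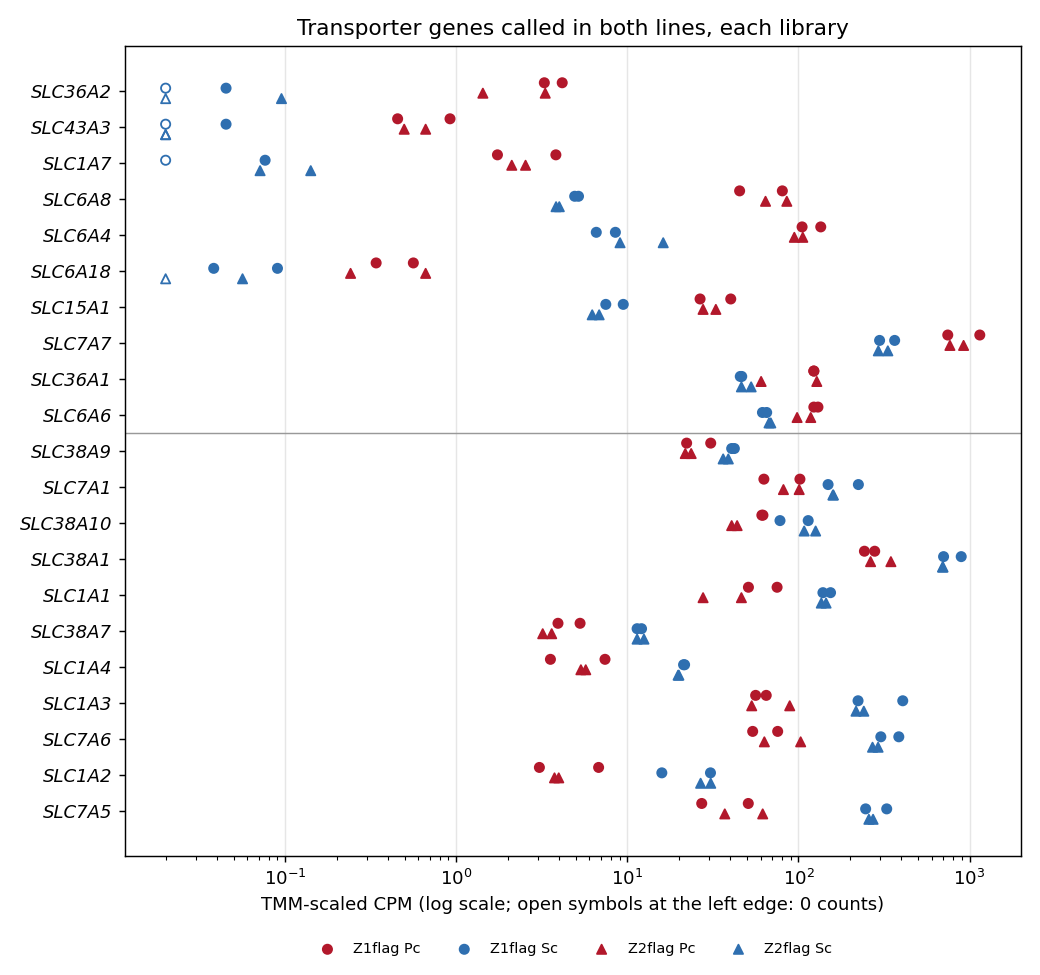
TMM-scaled CPM (log axis) of the 21 transporter genes called in both lines, in each of the 8 libraries; red is Pc, blue is Sc, circles are Z1flag and triangles Z2flag, and open symbols are libraries with 0 counts. The 10 genes above the line were higher in Pc and the 11 below it lower. The Pc and Sc libraries of a line do not overlap for any of them, but they were picked by calls on these same libraries, which makes overlap unlikely. Of all tested genes, 68.7% in Z1flag and 77.5% in Z2flag cells were without overlap.

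Of 9 tested apical transporters, 4 were called higher and 1 lower in Z1flag cells (21.3% and 19.1% of all tested genes), and 3 higher and 1 lower in Z2flag cells (18.3% and 19.3%). The summed level of the 10 genes of this role did not rise, at 381 to 483 CPM in the Pc and 454 to 537 CPM in the Sc libraries, which overlap. SLC15A1, the proton-coupled carrier of dipeptides and tripeptides (chromosome 13, 98683801 to 98752654, GRCh38), had 40.2 and 26.6 CPM in Z1flag Pc and 27.7 and 32.9 CPM in Z2flag Pc libraries. Before confluence it stood at 9.46 and 7.48 CPM in Z1flag and 6.23 and 6.84 CPM in Z2flag cells. Every Pc library lay above every Sc library. The log2 fold change was 1.98 in Z1flag (SE 0.26, edgeR adjusted p = 0.000525) and 2.21 in Z2flag cells (SE 0.26, adjusted p = 0.000413).

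SLC36A1, a proton-coupled carrier of small amino acids such as glycine and proline found at the brush border and in lysosomes, had 123 and 123 CPM in Z1flag Pc and 60.5 and 128 CPM in Z2flag Pc libraries. Sc libraries held 45.7 and 46.6 CPM (Z1flag) and 52.9 and 46.4 CPM (Z2flag). Postconfluent Z2flag replicate 1 lay close to the Sc libraries and far below the other Pc libraries. The gene was higher in Z1flag (log2 fold change 1.41, SE 0.30, edgeR adjusted p = 0.00484) and in Z2flag cells (0.93, SE 0.29, adjusted p = 0.0321). The call for SLC36A1 in Z2flag cells was lost without Pc Z2flag replicate 2 (0.38, adjusted p = 0.223), and with smaller shifts without either Sc Z2flag library (1.01, adjusted p = 0.101, without replicate 1, and 0.82, adjusted p = 0.181, without replicate 2) or either Sc Z1flag library (0.90 and 0.91, adjusted p = 0.0597 and 0.0586).

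SLC1A1, the sodium-dependent glutamate and aspartate carrier of the brush border, went the other way. It had 75 and 51 CPM in Z1flag Pc and 27.7 and 46.4 CPM in Z2flag Pc libraries. Its Sc values were 139 and 154 CPM in Z1flag and 136 and 145 CPM in Z2flag cells. The Sc libraries were tightly grouped and all above the Pc libraries, with log2 fold changes of -1.22 in Z1flag (SE 0.27, edgeR adjusted p = 0.00606) and -1.92 in Z2flag cells (SE 0.28, adjusted p = 0.000866).

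The 2 subunits of the apical cystine and cationic amino acid exchanger showed different patterns. Its heavy chain SLC3A1 had 18.7 and 4.85 CPM in Z1flag Pc and 6.78 and 5.23 CPM in Z2flag Pc libraries. The Sc libraries had 2.16 and 3.05 CPM in Z1flag and 4.52 and 2.79 CPM in Z2flag cells. The high value belonged to Pc Z1flag replicate 1. The SLC3A1 call in Z1flag cells (log2 fold change 2.18, SE 0.56, edgeR adjusted p = 0.0117) was lost without that library (0.93, adjusted p = 0.0857) and without Sc Z1flag replicate 1 (1.92, adjusted p = 0.0951) or 2 (2.44, adjusted p = 0.0512), and the change in Z2flag cells did not pass (0.72, SE 0.54, adjusted p = 0.317). Exons of PREPL on the other strand cover 29.4% of the exon bases of SLC3A1, and the sources used here do not give the strand setting of the counting, so reads of the pair may not be fully separated.

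The light chain SLC7A9 had 14.5 and 17.7 CPM in Z1flag Pc and 18.9 and 18.9 CPM in Z2flag Pc libraries, against 10.3 and 12.8 CPM in Z1flag Sc and 17.6 and 14.7 CPM in Z2flag Sc libraries. Pc libraries lay above Sc libraries within each line, but the changes were small and did not pass (log2 fold change 0.48, SE 0.23, edgeR adjusted p = 0.124 in Z1flag, and for Z2flag cells 0.22, SE 0.23, adjusted p = 0.468). SLC7A9 passed in Z1flag cells without Pc Z1flag replicate 1 (0.65, adjusted p = 0.0466).

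SLC1A5, an exchanger of glutamine and other neutral amino acids, had 148 and 257 CPM in Z1flag Pc and 233 and 201 CPM in Z2flag Pc libraries. Sc libraries held 246 and 239 CPM (Z1flag) and 317 and 267 CPM (Z2flag). The states overlapped in Z1flag cells, and no change passed (log2 fold change -0.26, SE 0.26, edgeR adjusted p = 0.444, and -0.43, SE 0.26, adjusted p = 0.209). Without Pc Z1flag replicate 2, leaving the low library as the only Pc library of that line, SLC1A5 was called lower in Z1flag cells (-0.72, adjusted p = 0.0129). An antisense gene ID covers 23.4% of its exon bases.

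The neutral amino acid carriers of the SLC6 family were scarce. SLC6A19, the main sodium-dependent carrier of neutral amino acids at the intestinal brush border, averaged 1.60 ± 0.07 CPM in Pc and 1.60 ± 0.65 CPM in Sc libraries (SD, n = 4 each), and no change was called. Its neighbour SLC6A18, which starts 237 bases behind the end of SLC6A19 on chromosome 5, had 20 counts in the Z1flag Pc libraries against 3 in the Z1flag Sc libraries, and 16 against 2 in Z2flag cells. Per gene count of the libraries this was a ratio of 7.22 (95% exact interval 2.14 to 38) in Z1flag and 16.7 (3.93 to 150.0) in Z2flag cells, intervals that cover counting error only. At so few counts the SLC6A18 call in Z1flag cells (edgeR adjusted p = 0.0422) was lost on leaving out any library other than Pc Z1flag replicate 1 (adjusted p of 0.0548 to 0.234), and in Z2flag cells (adjusted p = 0.0132) it was lost without replicate 1 of Pc (adjusted p = 0.156) or of Sc (adjusted p = 0.122). SLC6A20, a carrier of proline and other imino acids, had 4.36 CPM in Pc Z2flag replicate 1, while the other Pc libraries held 0.816 to 1.4 CPM, against 0.649 to 0.927 CPM in Sc libraries. In Z2flag cells it did not pass (1.51, SE 0.63, adjusted p = 0.083), except on leaving out Pc Z2flag replicate 2 (2.34, adjusted p = 0.00952) or the filter on low counts (1.47, adjusted p = 0.0124). SLC6A14, a broad apical carrier, had 0 counts in all 8 libraries, which allows up to 0.0146 CPM (3 of 205778323 counts).

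In Pc cells the most abundant transporter RNA per kb was that of a basolateral exchanger. SLC7A7, the light chain that exports cationic amino acids in exchange for neutral amino acids and sodium (chromosome 14, 22773222 to 22829820), had 1148 and 746 CPM in Z1flag Pc and 923 and 768 CPM in Z2flag Pc libraries. Its Sc values were 365 and 298 CPM in Z1flag and 333 and 293 CPM in Z2flag cells. The lowest Pc library was above the highest Sc library by a wide margin. The log2 fold change was 1.51 in Z1flag (SE 0.25, edgeR adjusted p = 0.0014) and 1.43 in Z2flag cells (SE 0.25, adjusted p = 0.00201).

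SLC7A6, a close relative with the same kind of exchange activity (chromosome 16, 68264516 to 68301823), had 54.0 and 75.6 CPM in Z1flag Pc and 103 and 63.2 CPM in Z2flag Pc libraries. The Sc libraries had 386 and 303 CPM in Z1flag and 271 and 292 CPM in Z2flag cells. It was low in all Pc libraries, with log2 fold changes of -2.41 in Z1flag (SE 0.28, edgeR adjusted p = 0.00032) and -1.76 in Z2flag cells (SE 0.28, adjusted p = 0.00129). SLC7A6OS lies on the other strand and covers 44.4% of the exon bases of SLC7A6. That neighbour itself changed by 0.04 on the log2 scale over both lines.

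Set against each other per kb of exon, SLC7A7 RNA was 13.2 to 31.4 times that of SLC7A6 in the Pc libraries (13.2 to 18.0 times without Pc Z1flag replicate 1) and 1.40 to 1.82 times in the Sc libraries. Of the RNA for the light chains that pair with SLC3A2 (SLC7A5, SLC7A6, SLC7A7, SLC7A8, SLC7A10 and SLC7A11, in CPM per kb of exon), SLC7A7 made up 82.7% to 92.7% in the Pc libraries (82.7% to 87.6% without Pc Z1flag replicate 1) and 34.6% to 38.6% in the Sc libraries. SLC7A5 made up 2.38% to 6.26% in Pc (4.58% to 6.26% without Pc Z1flag replicate 1) and 32.7% to 34.2% in Sc libraries. The summed light chains were 171 to 241 CPM per kb in Pc (171 to 217 without Pc Z1flag replicate 1) and 159 to 206 CPM per kb in Sc libraries, which overlap. The shares of SLC7A7, SLC7A6 and SLC7A5 did not overlap between the states, while the sums did.

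**Figure D2:**
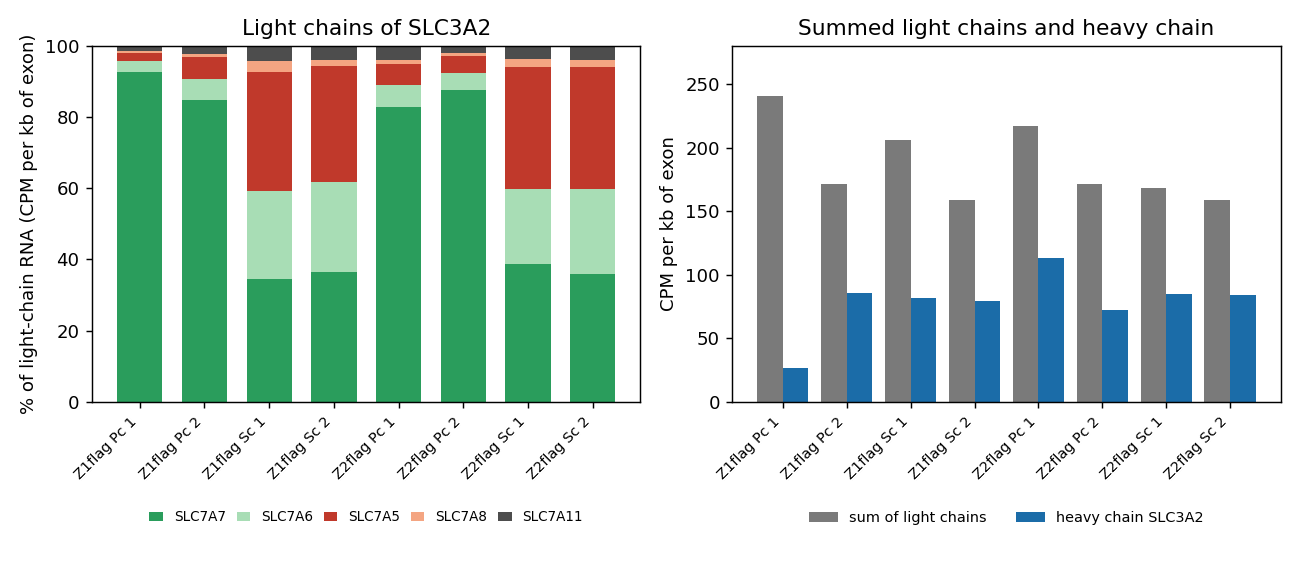
Left, the share of each SLC3A2 light chain in the summed light-chain RNA of each library, in percent of CPM per kb of exon; right, that sum and the heavy chain SLC3A2 in CPM per kb. SLC7A7 takes 82.7% to 92.7% in the Pc libraries (82.7% to 87.6% without Z1flag Pc replicate 1) and 34.6% to 38.6% in the Sc libraries. The heavy chain is low in Z1flag Pc replicate 1 (26.9 CPM per kb). SLC7A10, with 6 counts in all, is too low to be seen.

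The heavy chain SLC3A2 had 139 and 443 CPM in Z1flag Pc and 585 and 375 CPM in Z2flag Pc libraries. Before confluence it stood at 424 and 410 CPM in Z1flag and 440 and 433 CPM in Z2flag cells. Pc Z1flag replicate 1 was far below all other libraries, and the Pc libraries spread to both sides of the Sc libraries. No change passed (log2 fold change -0.52, SE 0.43, edgeR adjusted p = 0.355 in Z1flag, and for Z2flag cells 0.14, SE 0.42, adjusted p = 0.82). Without Pc Z1flag replicate 1 the Z1flag value of SLC3A2 was 0.12 (adjusted p = 0.71), and without Pc Z1flag replicate 2 it was -1.59 (adjusted p = 0.00125). The sum of the light chains over the heavy chain was 8.96 in Pc Z1flag replicate 1, 1.92 to 2.36 in the other Pc libraries and 1.90 to 2.51 in the Sc libraries.

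SLC7A8, the basolateral exchanger of neutral amino acids, had 5.94 and 8.06 CPM in Z1flag Pc and 12.8 and 9.5 CPM in Z2flag Pc libraries, against 36 and 16.3 CPM in Z1flag Sc and 22.3 and 18.3 CPM in Z2flag Sc libraries. All Pc libraries were below all Sc libraries. The log2 fold change passed in Z1flag (-1.90, SE 0.37, edgeR adjusted p = 0.00311) and not in Z2flag cells (-0.86, SE 0.36, adjusted p = 0.0816), although it did pass there without Sc Z1flag replicate 1 (adjusted p = 0.0435) or 2 (adjusted p = 0.0407), with no filter on low counts (-0.90, adjusted p = 0.00803) and in the fit of the line alone (-0.80, adjusted p = 0.0248). The difference between the lines was 1.04 (SE 0.51, adjusted p = 0.799).

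SLC43A1, a uniporter of large neutral amino acids, had 63.1 and 68.4 CPM in Z1flag Pc and 62.6 and 64.4 CPM in Z2flag Pc libraries. Its Sc values were 34 and 38.8 CPM in Z1flag and 55.1 and 43.4 CPM in Z2flag cells. The 4 Pc libraries were nearly level. Both Sc libraries of Z2flag lay above those of Z1flag, a difference that did not pass (0.44, SE 0.19, adjusted p = 1.0). It passed in Z1flag cells (log2 fold change 0.85, SE 0.19, edgeR adjusted p = 0.0066; 0.74, adjusted p = 0.0821, without Sc Z1flag replicate 1) but not in Z2flag cells (0.37, SE 0.19, adjusted p = 0.154), where it passed without Pc Z1flag replicate 1 (0.46, adjusted p = 0.0334) or 2 (0.45, adjusted p = 0.0363). SLC43A2, a second such uniporter, had 16.6 and 20.6 CPM in Z1flag Pc and 14.1 and 17.1 CPM in Z2flag Pc libraries, against 17.2 and 22.4 CPM in Z1flag Sc and 19.4 and 23.2 CPM in Z2flag Sc libraries, and did not pass in either line (adjusted p = 0.784 and 0.162).

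Of 6 tested carriers that serve growing cells, none was called higher, 5 were called lower in Z1flag and 4 in Z2flag cells (19.1% and 19.3% of all tested genes were). SLC1A5, which growing cells also use, is counted with the apical carriers. For the 7 genes of the role the summed level was 818 to 1127 CPM in the Pc libraries and 1683 to 2166 CPM in the Sc libraries. Of 8 tested proliferation markers, 6 were called lower in Z1flag and 3 in Z2flag cells, and 6 over both lines (27.5% of all tested genes were). MKI67 (164 to 263 CPM in Pc, 458 to 629 CPM in Sc libraries) and PCNA (40.5 to 88.2 and 226 to 248 CPM) were lower. TOP2A (649 to 883 and 747 to 894 CPM) and CDK1 (205 to 525 and 408 to 438 CPM) were not called over both lines. The summed level of the markers was 1280 to 2150 CPM in the Pc libraries (1859 to 2150 CPM without Pc Z1flag replicate 1). In the Sc libraries it was 2746 to 3054 CPM. The part of these markers in the results was not tested.

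SLC7A5, the exchanger of leucine and other large neutral amino acids (chromosome 16, 87830023 to 87869488), had 27.2 and 50.9 CPM in Z1flag Pc and 61.8 and 37.1 CPM in Z2flag Pc libraries. The Sc libraries had 328 and 247 CPM in Z1flag and 273 and 258 CPM in Z2flag cells. No Pc library came near an Sc library. The log2 fold change of -2.88 in Z1flag (SE 0.34, edgeR adjusted p = 0.000353) and -2.42 in Z2flag cells (SE 0.34, adjusted p = 0.000761) made it the most reduced of the tested genes in Z1flag cells. The near-identical pseudogene SLC7A5P1 took 1003 counts over all libraries, so reads shared with it are uncertain.

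SLC38A1 and SLC38A2, sodium-coupled carriers of glutamine and alanine, lie 88171 bases apart on chromosome 12. SLC38A1 had 279 and 243 CPM in Z1flag Pc and 347 and 264 CPM in Z2flag Pc libraries. Before confluence it stood at 894 and 705 CPM in Z1flag and 695 and 700 CPM in Z2flag cells. It was lower in every Pc library, by a log2 fold change of -1.62 in Z1flag (SE 0.22, edgeR adjusted p = 0.000584) and -1.19 in Z2flag cells (SE 0.22, adjusted p = 0.00258). SLC38A2 had 507 and 379 CPM in Z1flag Pc and 528 and 408 CPM in Z2flag Pc libraries. Sc libraries held 614 and 500 CPM (Z1flag) and 481 and 492 CPM (Z2flag). Its states overlapped in both lines, and its changes did not pass (-0.33, SE 0.22, adjusted p = 0.261, and -0.06, SE 0.22, adjusted p = 0.857). The level of SLC38A1 per kb was 0.363 to 0.433 times that of SLC38A2 in the Pc libraries and 0.929 to 0.959 times in the Sc libraries.

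SLC1A4, an exchanger of alanine, serine and cysteine, had 3.55 and 7.4 CPM in Z1flag Pc and 5.35 and 5.71 CPM in Z2flag Pc libraries, against 21.3 and 21.6 CPM in Z1flag Sc and 19.8 and 20 CPM in Z2flag Sc libraries. The Sc libraries were almost level and the Pc libraries all lower, with log2 fold changes of -1.98 in Z1flag (SE 0.32, edgeR adjusted p = 0.00132) and -1.85 in Z2flag cells (SE 0.32, adjusted p = 0.00207).

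SLC7A1, the widespread carrier of arginine and lysine, had 62.8 and 102 CPM in Z1flag Pc and 101 and 81.7 CPM in Z2flag Pc libraries. The Sc libraries had 224 and 149 CPM in Z1flag and 159 and 160 CPM in Z2flag cells. Pc libraries were lower throughout, but neither call held throughout. It passed in Z1flag (log2 fold change -1.18, SE 0.28, edgeR adjusted p = 0.00753) and in Z2flag cells (-0.80, SE 0.27, adjusted p = 0.0414). For SLC7A1 in Z1flag cells the call was lost without Sc Z1flag replicate 1 (-0.88, adjusted p = 0.0804). In Z2flag cells it was lost without any 1 of the 4 Z2flag libraries (-0.57 without Pc Z2flag replicate 2 and -0.88 without Pc Z2flag replicate 1, and -0.82 and -0.81 without Sc Z2flag replicates 1 and 2, adjusted p of 0.125 to 0.286).

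SLC7A11, the light chain that imports cystine in exchange for glutamate, had 35.1 and 36.5 CPM in Z1flag Pc and 84.1 and 33.0 CPM in Z2flag Pc libraries. Before confluence it stood at 84.2 and 59.9 CPM in Z1flag and 60.3 and 61.0 CPM in Z2flag cells. Pc Z2flag replicate 1 was as high as the highest Sc library. The gene passed narrowly in Z1flag cells (log2 fold change -1.01, SE 0.36, edgeR adjusted p = 0.0466) and not in Z2flag cells (-0.05, SE 0.35, adjusted p = 0.923). The Z1flag call of SLC7A11 was lost without any 1 of the Z1flag libraries (-0.95 and -1.05 without Pc replicates 1 and 2, -0.76 and -1.24 without Sc replicates 1 and 2) or of the Sc Z2flag libraries (-1.02 without either), with adjusted p of 0.0651 to 0.238. SLC38A5, another glutamine carrier, had 34 counts in all and was not tested.

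**Figure D3:**
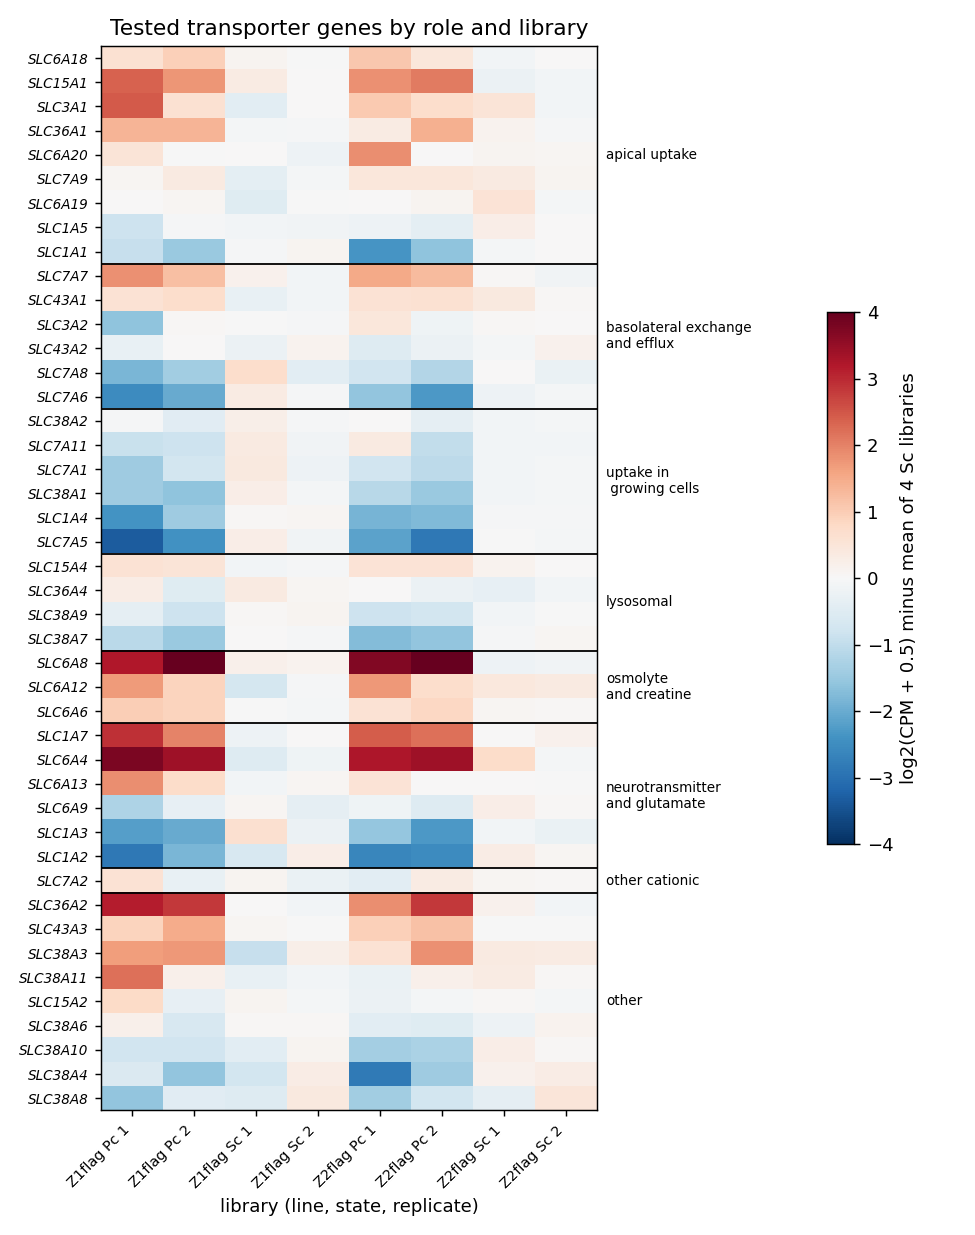
log2(CPM + 0.5) of the 44 tested transporter genes minus the mean of the 4 Sc libraries, one column per library with Pc left of Sc in each line, and genes grouped by role. Growing-cell carriers are blue or pale in the Pc columns, osmolyte and creatine carriers are red, and the other roles hold both colours.

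All 3 tested carriers of osmolytes and creatine were called higher in Z1flag cells and 2 of them in Z2flag cells, against 21.3% and 18.3% of all tested genes. SLC6A8, the sodium-coupled creatine carrier (X chromosome, 153688099 to 153696593), had 45.3 and 80.5 CPM in Z1flag Pc and 64.2 and 85.5 CPM in Z2flag Pc libraries. Sc libraries held 5.18 and 4.92 CPM (Z1flag) and 3.83 and 4 CPM (Z2flag). All Pc libraries were far above the Sc libraries, with log2 fold changes of 3.64 in Z1flag (SE 0.30, edgeR adjusted p = 9.68e-05) and 4.26 in Z2flag cells (SE 0.31, adjusted p = 6.42e-05). Exons of PNCK on the other strand cover 22 bases (0.40%) of its exons.

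SLC6A6, the carrier of taurine and beta-alanine, had 130 and 123 CPM in Z1flag Pc and 98.2 and 118 CPM in Z2flag Pc libraries. Its Sc values were 65.2 and 61.6 CPM in Z1flag and 68.9 and 67.3 CPM in Z2flag cells. It was higher in every Pc library, by a log2 fold change of 1.00 in Z1flag (SE 0.18, edgeR adjusted p = 0.00217) and 0.67 in Z2flag cells (SE 0.18, adjusted p = 0.016). The call of SLC6A6 in Z2flag cells was lost without Pc Z2flag replicate 2 (0.62, adjusted p = 0.0621) and without Sc Z2flag replicate 1 (0.67, adjusted p = 0.128) or 2 (0.64, adjusted p = 0.155). SLC6A12, which carries betaine and GABA, averaged 8.10 ± 3.09 CPM in Pc and 3.08 ± 1.15 CPM in Sc libraries (SD, n = 4 each). It passed in Z1flag cells (1.91, SE 0.46, adjusted p = 0.00862; 1.54, adjusted p = 0.0844, without Sc Z1flag replicate 1) and not in Z2flag cells (1.00, SE 0.44, adjusted p = 0.0947). In Z2flag cells SLC6A12 did pass without Pc Z1flag replicate 1 or 2 (adjusted p = 0.0374 and 0.0365) and without Pc Z2flag replicate 2 (1.54, adjusted p = 0.0343).

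SLC6A4, the serotonin carrier, which enterocytes also make and which clears serotonin from the mucosa (chromosome 17, 30194319 to 30236002), had 135 and 105 CPM in Z1flag Pc and 94.6 and 106 CPM in Z2flag Pc libraries, against 6.58 and 8.51 CPM in Z1flag Sc and 16.2 and 9.06 CPM in Z2flag Sc libraries. The Pc libraries lay many times above the Sc libraries, with log2 fold changes of 3.99 in Z1flag (SE 0.31, edgeR adjusted p = 7.08e-05) and 2.99 in Z2flag cells (SE 0.29, adjusted p = 0.000196). Of 8 neuron markers, SNAP25, STMN2 and NEFL had 0 counts, RBFOX3, MAP2 and GAP43 had 1 or 2 counts in all, and SYP and SYT1 were the only ones above 1 CPM in any library. Their summed level was 9.04 to 10.2 CPM in the Pc and 9.19 to 23.9 CPM in the Sc libraries.

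Other high-affinity glutamate carriers changed as well. SLC1A3 had 56.2 and 64.8 CPM in Z1flag Pc and 88.9 and 53.3 CPM in Z2flag Pc libraries. Before confluence it stood at 407 and 223 CPM in Z1flag and 241 and 217 CPM in Z2flag cells. All Pc libraries were well below the Sc libraries (log2 fold change -2.38, SE 0.33, edgeR adjusted p = 0.0006 in Z1flag, and for Z2flag cells -1.69, SE 0.32, adjusted p = 0.00304). SLC1A2 had 3.06 and 6.79 CPM in Z1flag Pc and 3.75 and 3.97 CPM in Z2flag Pc libraries, against 15.9 and 30.6 CPM in Z1flag Sc and 30.7 and 26.8 CPM in Z2flag Sc libraries, and was likewise lower (-2.25, SE 0.40, adjusted p = 0.00209, and -2.89, SE 0.42, adjusted p = 0.000866).

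SLC1A7, a glutamate carrier known from the retina, was higher in Pc cells and near the counting limit in Sc cells. It had 135 counts in the Z1flag Pc libraries against 2 in the Z1flag Sc libraries, a ratio per gene count of 73.1 (95% exact interval 19.9 to 610.0), and 81 against 8 in Z2flag cells, a ratio of 21.2 (10.2 to 50.7). In CPM it reached 1.74 to 3.82 in the Pc libraries. Among the glutamate carriers 3 (SLC1A1, SLC1A2 and SLC1A3) were called lower in both lines and 1 (SLC1A7) higher in both, against 14% and 14.4% of all tested genes. SLC1A6 had 0 counts in all libraries.

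SLC6A13, a GABA carrier whose gene lies 6050 bases from SLC6A12, had 2.12 CPM in Pc Z1flag replicate 1, while the other Pc libraries held 0.241 to 0.714 CPM, against 0.180 to 0.267 CPM in the Sc libraries. The SLC6A13 call in Z1flag cells (2.65, SE 0.66, edgeR adjusted p = 0.0103) was lost without Pc Z1flag replicate 1 (1.67, adjusted p = 0.078) and without Sc Z1flag replicate 1 (2.38, adjusted p = 0.0813) or 2 (2.95, adjusted p = 0.0527). The glycine carrier SLC6A9 had 2.46 to 5.73 CPM in the Pc and 4.92 to 7.82 CPM in the Sc libraries and did not pass in either line (adjusted p = 0.198 and 0.289), though it was called lower in Z1flag cells without Pc Z1flag replicate 2 (-1.26, adjusted p = 0.0186). The carriers of noradrenaline (SLC6A2) and dopamine (SLC6A3) and the GABA carrier SLC6A11 had 1 to 10 counts each over all libraries and were not tested.

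Promoter sequences were available from RefSeq for 48 of the 64 genes, as 70 windows from 250 bases before to 50 bases after a start site (GRCh38.p14). The letters TGATGCA, the core of the element bound by ATF4, a factor of the amino acid response, were searched on both strands. They occurred in 5 of the 70 windows (7.14%) and in 923 of 35116 windows of all genes (2.63%). The 5 windows belong to SLC1A3, SLC1A4 and SLC38A7, which were lower in both lines, to SLC1A7, which was higher in both, and to SLC1A5, which was not called. AAAGTCC, part of the element bound by HNF4, occurred in 2 of the 70 windows (2.86%) and in 1303 of 35116 of all genes (3.71%). The windows of the 4 genes called in both lines are printed with the match in capitals, because they place the same letters beside genes that changed in opposite directions. Such a match is a description of these letters and not a binding site.
SLC1A3, chr5:36596338-36596637, plus strand: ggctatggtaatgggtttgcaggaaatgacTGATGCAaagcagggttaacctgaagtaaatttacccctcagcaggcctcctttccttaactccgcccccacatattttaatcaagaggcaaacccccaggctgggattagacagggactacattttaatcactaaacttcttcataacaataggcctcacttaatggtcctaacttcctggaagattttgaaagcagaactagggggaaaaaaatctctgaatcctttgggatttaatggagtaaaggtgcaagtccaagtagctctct
SLC1A4, chr2:64989149-64989448, plus strand (match to the other strand): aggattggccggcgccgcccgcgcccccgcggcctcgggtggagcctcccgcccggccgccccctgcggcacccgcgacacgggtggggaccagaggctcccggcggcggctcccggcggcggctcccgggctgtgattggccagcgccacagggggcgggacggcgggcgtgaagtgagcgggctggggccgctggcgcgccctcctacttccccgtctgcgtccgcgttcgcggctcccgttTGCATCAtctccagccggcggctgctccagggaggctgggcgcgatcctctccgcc
SLC38A7, chr16:58684721-58685020, minus strand: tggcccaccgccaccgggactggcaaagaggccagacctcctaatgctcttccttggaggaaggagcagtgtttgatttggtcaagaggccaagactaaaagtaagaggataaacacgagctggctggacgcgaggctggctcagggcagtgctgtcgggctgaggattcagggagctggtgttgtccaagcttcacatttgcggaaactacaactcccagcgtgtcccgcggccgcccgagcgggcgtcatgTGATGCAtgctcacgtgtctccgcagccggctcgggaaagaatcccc
SLC1A7, chr1:53142589-53142888, minus strand: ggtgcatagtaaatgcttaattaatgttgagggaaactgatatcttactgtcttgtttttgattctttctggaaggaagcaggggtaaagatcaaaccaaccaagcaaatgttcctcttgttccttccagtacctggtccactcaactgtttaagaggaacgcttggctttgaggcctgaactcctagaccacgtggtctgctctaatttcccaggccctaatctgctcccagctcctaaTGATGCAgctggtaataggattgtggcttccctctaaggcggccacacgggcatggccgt
Counted from the start site of the window shown, the match begins at position -220 in SLC1A3, -6 in SLC1A4, -10 in SLC1A7 and 4 in SLC38A7. SLC1A3, SLC1A4 and SLC38A7 also have windows at other start sites, and those do not hold TGATGCA. The SLC1A3 window with the match lies before 36606355, the start of the gene in GENCODE v29, and its windows beyond that position hold no match.

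Of 4 tested lysosomal carriers, 1 was called higher and 2 lower in Z1flag cells (21.3% and 19.1% of all tested genes), and 0 higher and 2 lower in Z2flag cells (18.3% and 19.3%). SLC38A9, which reports lysosomal arginine to mTORC1, had 30.7 and 22.2 CPM in Z1flag Pc and 21.8 and 23.6 CPM in Z2flag Pc libraries. Sc libraries held 40.7 and 42.2 CPM (Z1flag) and 36.3 and 38.9 CPM (Z2flag). Every Pc library was below every Sc library, and the log2 fold changes were -0.65 in Z1flag (SE 0.21, edgeR adjusted p = 0.0318) and -0.73 in Z2flag cells (SE 0.21, adjusted p = 0.0212). These calls of SLC38A9 were among the least firm. The Z1flag call was lost without Pc Z1flag replicate 2 (-0.44), either Sc Z1flag library (-0.70 and -0.63) or either Sc Z2flag library (-0.66 each), with adjusted p of 0.0673 to 0.129, and the Z2flag call without any 1 of the Z2flag libraries (Pc -0.59 and -0.69, Sc -0.79 and -0.69, adjusted p of 0.0893 to 0.146). Under upper-quartile scaling the SLC38A9 values were -0.42 in Z1flag (adjusted p = 0.14) and -0.56 in Z2flag cells (adjusted p = 0.0617).

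SLC38A7, which exports glutamine and asparagine from lysosomes, had 5.29 and 3.93 CPM in Z1flag Pc and 3.20 and 3.61 CPM in Z2flag Pc libraries. Its Sc values were 12.1 and 11.4 CPM in Z1flag and 11.4 and 12.5 CPM in Z2flag cells. The Sc libraries were level and the Pc libraries all lower (log2 fold change -1.34, SE 0.26, edgeR adjusted p = 0.00335 in Z1flag, and for Z2flag cells -1.81, SE 0.27, adjusted p = 0.00106). SLC15A4, a lysosomal carrier of histidine and peptides, had 33.3 to 34.3 CPM in the Pc and 21.3 to 25.2 CPM in the Sc libraries. It passed in Z1flag cells (0.63, SE 0.18, adjusted p = 0.0207) and missed in Z2flag cells (0.48, SE 0.18, adjusted p = 0.0596). The SLC15A4 call in Z1flag cells was lost without any 1 Sc library (0.57 to 0.66, adjusted p of 0.0667 to 0.145), and in Z2flag cells it passed without Pc Z1flag replicate 1 or 2 (0.58 and 0.57, adjusted p = 0.00996 and 0.011). In Z2flag cells SLC15A4 also passed under RLE scaling (0.55, adjusted p = 0.04), upper-quartile scaling (0.65, adjusted p = 0.0194), DESeq2 (0.55, adjusted p = 0.0465) and the fit of the line alone (0.55, adjusted p = 0.0206). The amino acid sensor and carrier SLC36A4 did not pass in either line (adjusted p = 0.453 and 0.786) but was called lower in Z1flag cells without Pc Z1flag replicate 1 (-0.69, adjusted p = 0.0398), and SLC15A3 had 8 counts in all and was not tested.

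Among the remaining genes, SLC38A10, a widespread relative of the glutamine carriers, had 61.1 and 62.0 CPM in Z1flag Pc and 40.7 and 43.8 CPM in Z2flag Pc libraries. The Sc libraries had 78.0 and 114 CPM in Z1flag and 126 and 108 CPM in Z2flag cells. It was lower in all Pc libraries, more so in Z2flag cells (log2 fold change -1.47, SE 0.22, edgeR adjusted p = 0.00103) than in Z1flag cells (-0.64, SE 0.21, adjusted p = 0.0364), a difference that did not pass its own test. The SLC38A10 call in Z1flag cells was lost without Sc Z1flag replicate 2 (-0.35, adjusted p = 0.316), and by small margins without Pc Z1flag replicate 1 (-0.59) or any 1 Z2flag library (-0.63 to -0.65), with adjusted p of 0.0517 to 0.0659.

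SLC38A3, a glutamine carrier of liver and kidney, averaged 38.1 ± 12.6 CPM in Pc and 13.6 ± 4.73 CPM in Sc libraries, and SLC38A4, a liver carrier of neutral amino acids, 32.4 ± 18.8 and 89.8 ± 25.5 CPM (SD, n = 4 each). SLC38A3 was called higher in Z1flag cells (1.98, SE 0.43, edgeR adjusted p = 0.00586; 1.48, adjusted p = 0.0555, without Sc Z1flag replicate 1) and missed in Z2flag cells (1.02, SE 0.42, adjusted p = 0.0814), passing there without Pc Z2flag replicate 1 (1.60, adjusted p = 0.0223), under DESeq2 (1.08, adjusted p = 0.023) and with no filter on low counts (0.97, adjusted p = 0.00152). SLC38A4 was called lower in Z2flag cells (-2.21, SE 0.50, adjusted p = 0.00703; -1.57, adjusted p = 0.0584, without Pc Z2flag replicate 1) and missed in Z1flag cells (-0.87, SE 0.48, adjusted p = 0.167), passing there with no filter (-0.95, adjusted p = 0.0436). All 6 hepatocyte markers, among them AHSG (1857 to 3272 CPM in Pc, 72.6 to 251.0 CPM in Sc libraries), were called higher over both lines (27.8% of all tested genes were). Within lines, 6 were called higher in Z1flag and 4 in Z2flag cells (21.3% and 18.3% of all tested genes). The summed level of the hepatocyte markers was 3262 to 5995 CPM in the Pc and 218 to 703 CPM in the Sc libraries. Their part in the results for SLC38A3 and SLC38A4 was not tested.

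SLC36A2, a high-affinity relative of SLC36A1 whose gene lies 89455 bases from it, had 174 counts in the Z1flag Pc libraries against 1 in the Z1flag Sc libraries, a ratio per gene count of 189 (95% exact interval 33.4 to 7489), and 81 against 4 in Z2flag cells, a ratio of 42.3 (15.9 to 159). Its other neighbour SLC36A3 had 0 counts in all libraries. SLC43A3, which carries purine bases rather than amino acids, had 30 counts against 1 in Z1flag cells, a ratio of 32.5 (5.40 to 1326). In Z2flag cells it had 20 against 0, a ratio of 13.9 with 3 counts taken for the Sc group. That ratio leaves out the counting error of the 20 Pc counts and is no strict lower bound. The SLC43A3 call in Z1flag cells was lost without Sc Z1flag replicate 2 (3.77, adjusted p = 0.0579), and a protein-coding gene ID of the same strand covers 29.9% of its exon bases. SLC38A8 was called lower over both lines only (-1.81, SE 0.62, adjusted p = 0.0309), with 17 against 62 counts in Z1flag and 12 against 104 in Z2flag cells. Within a line SLC38A8 passed without Pc Z1flag replicate 2 (-3.97 in Z1flag, -1.89 in Z2flag cells) and, in Z2flag cells, without Pc Z1flag replicate 1 (-1.88). SLC7A2, a cationic amino acid carrier of liver and macrophages, the peptide carrier SLC15A2 of kidney and the orphan SLC38A6 were not called in either line (adjusted p of 0.271 to 0.865), although SLC15A2 passed in Z1flag cells without Pc Z1flag replicate 2 (0.80, adjusted p = 0.0499).

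No transporter gene was called for a difference between the lines. The change after confluence differed between Z2flag and Z1flag cells in 0 of 44 genes (0 of all tested genes, edgeR), and 3 genes had an unadjusted p under 0.05 (902 of all tested genes, 4.95%), while DESeq2 called 0. These were SLC38A10 (-0.82, SE 0.30), SLC38A11 (-2.70, SE 0.99) and SLC6A4 (-1.0, SE 0.39), each with an adjusted p of 0.799. SLC38A11, a little-studied relative of the glutamine carriers, had 5.29 and 0.970 CPM in Z1flag Pc and 0.551 and 0.962 CPM in Z2flag Pc libraries, against 0.541 and 0.687 CPM in Z1flag Sc and 1.09 and 0.816 CPM in Z2flag Sc libraries. Pc Z1flag replicate 1 alone was high, and the SLC38A11 call in Z1flag cells (2.35, SE 0.69, adjusted p = 0.0222) fell to 0.68 (adjusted p = 0.318) without it, and was lost without Sc Z1flag replicate 1 (2.17, adjusted p = 0.127) or 2 (2.53, adjusted p = 0.0913).

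Within the Pc state, Z2flag and Z1flag cells differed in 0 of 44 genes, with 4 at an unadjusted p under 0.05 (SLC1A1, SLC38A10, SLC38A11 and SLC6A13; 1308 of all tested genes, 7.17%), and within the Sc state in 0 of 44, with 2 at an unadjusted p under 0.05 (SLC43A1 and SLC6A4; 195 of all tested genes, 1.07%). DESeq2 called 0 in both. Leaving out Pc Z1flag replicate 2 makes the outlying replicate 1 the only Pc Z1flag library. In that fit SLC3A2 (1.84) and SLC6A8 (0.78) were called higher in Z2flag than in Z1flag Pc cells. SLC1A1 (-0.97), SLC3A1 (-1.58), SLC38A11 (-2.76) and SLC6A13 (-2.33) were called lower. The change after confluence was then called different for SLC3A2 (1.81) and SLC38A11 (-3.35). Such calls were not confined to the transporters. Other tested genes were called in both comparisons too, while the fit of all libraries called none. The lone library is there assumed to vary like the other groups. With no filter on low counts, SLC38A11 was called lower in Z2flag Pc cells (-2.03, adjusted p = 0.0203).

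**Figure D4:**
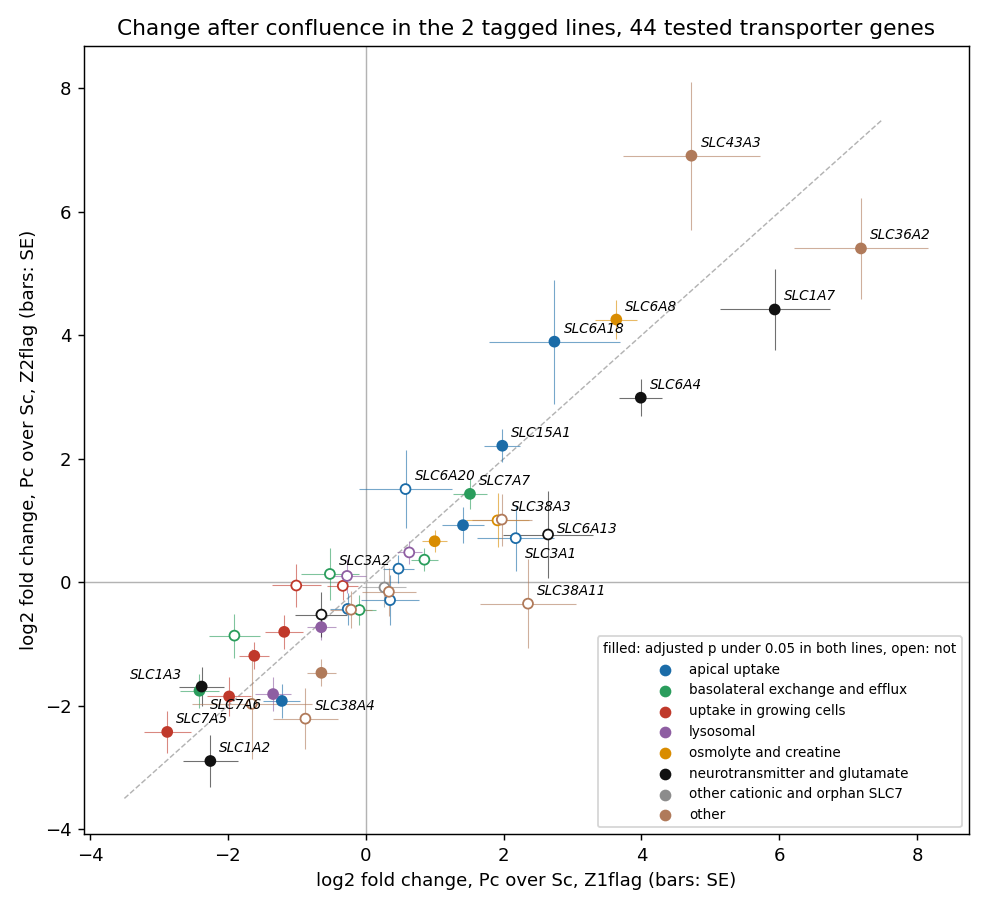
log2 fold change of Pc over Sc in Z2flag cells (vertical) against that in Z1flag cells (horizontal) for the 44 tested transporter genes, with SE as bars, coloured by role, and filled where both lines passed; the dashed line marks equal change. The fitted values of SLC36A2, SLC43A3, SLC1A7 and SLC6A18 rest on few counts and are no bound, and SLC38A11 and SLC3A1 have 1 high Z1flag Pc library.

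Ranked per kb of exon, the leading transporter RNAs differed in order between the states. SLC7A7 took 28.5% of the summed level of the 64 genes in the Pc libraries (175 CPM per kb), followed by SLC3A2 (74.5), SLC38A2 (69.0), SLC1A5 (62.9) and SLC38A1 (28.3 CPM per kb). In the Sc libraries the order was SLC3A2 (82.4), SLC1A5 (80.2), SLC38A2 (79.1), SLC38A1 (74.7), SLC7A7 (62.9) and SLC7A5 (58.2 CPM per kb), and neighbours among the first 4 lay close together. SLC6A4 was in place 7 in Pc and 29 in Sc libraries, and SLC6A8 in place 10 and 32. SLC7A5 was in place 16 in Pc and 6 in Sc libraries. In all, 9 genes (SLC1A6, SLC36A3, SLC6A14, SLC6A15, SLC6A17, SLC6A5, SLC7A13, SLC7A14 and SLC7A4) had 0 counts in all 8 libraries. The other untested genes, SLC15A5, SLC6A7, SLC6A16, SLC7A3 and SLC7A10 among them, had at most 34 counts in all.

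Peptidases supply these carriers with their substrates. Of 10 tested brush border peptidases, 7 were called higher and 1 lower over both lines, against 27.8% and 27.5% of all tested genes. ANPEP, aminopeptidase N, averaged 27.7 ± 15.5 CPM in Pc and 1.34 ± 0.70 CPM in Sc libraries (SD, n = 4 each; log2 fold change 4.39, SE 0.35, edgeR adjusted p = 1.25e-05). MEP1A, a meprin subunit (4.58, SE 0.30, adjusted p = 5.86e-06), and NAALADL1, an ileal peptidase (4.65, SE 0.38), were higher as well. ENPEP, aminopeptidase A, was the 1 that was lower (-2.05, SE 0.32). Of 8 tested cytosolic peptidases 5 were lower, among them the prolidase PEPD (-1.06, SE 0.17), leucine aminopeptidase LAP3 (-0.83, SE 0.14) and the dipeptidase CNDP2 (-0.89, SE 0.15). The 1 that was higher was the aminopeptidase XPNPEP1, whose call (0.48, SE 0.14, adjusted p = 0.0143) was lost without any 1 Sc library (0.45 to 0.49, adjusted p of 0.0534 to 0.0736).

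Of 24 genes of amino acid sensing by mTORC1, 7 were called higher and 7 lower over both lines, shares near those of all tested genes (27.8% and 27.5%). The kinase gene MTOR (82.1 ± 4.09 CPM in Pc, 186 ± 6.24 CPM in Sc libraries; SD, n = 4 each; -1.18, SE 0.12, edgeR adjusted p = 4.77e-05) and its partner RPTOR (-1.0, SE 0.13) were lower, and the GTPase gene RRAGD was higher (2.75, SE 0.27). Those counts were 4 higher without Sc Z1flag replicate 2 or Sc Z2flag replicate 1, and 3 or 4 lower without Sc Z1flag replicate 2, Pc Z2flag replicate 1 or either Sc Z2flag library. Of 15 tested genes of the ATF4 response, 5 were higher and 6 lower (3 lower without Pc Z2flag replicate 2). DDIT3 (1.96, SE 0.26) and TRIB3 (1.48, SE 0.22), regulators of stressed cells, were higher, and PSAT1, an enzyme of serine synthesis, was lower (-1.81, SE 0.19, adjusted p = 4.6e-05). In Pc Z1flag replicate 1 the median of this list, relative to the Sc mean, was -0.816 on the log2 scale, against -0.238 to -0.056 in the other Pc libraries.

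Calls among enzymes that use the transported amino acids, few per list, stand beside 27.8% higher and 27.5% lower of all tested genes. Of 10 enzymes of glutamine and glutamate, 4 were higher, among them the glutaminase GLS2 (log2 fold change 1.27, SE 0.21), and 3 lower, among them PPAT of purine synthesis (-1.29, SE 0.17) and the transaminase GPT2 (-1.07, SE 0.18), with 2 higher without Sc Z1flag replicate 1. Of 8 genes of cystine and glutathione, 2 were higher and 3 lower, with GPX4, which removes lipid peroxides, higher (1.22, SE 0.16) and CHAC2, which degrades glutathione (-2.96, SE 0.27), and the glutathione synthetase GSS (-1.05, SE 0.16) lower. Of 11 enzymes of arginine, proline and polyamines, 4 were higher and 3 lower (5 lower without Pc Z1flag replicate 2). PRODH, which degrades proline, averaged 107 ± 39.4 CPM in Pc and 11.7 ± 4.05 CPM in Sc libraries (SD, n = 4 each; 3.19, SE 0.28, edgeR adjusted p = 1.92e-05), ASS1 of arginine synthesis was higher (1.24, SE 0.17), and spermidine synthase SRM lower (-1.66, SE 0.22).

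Of 7 tested partners and regulators of the carriers, 2 were higher and 1 lower over both lines (27.8% and 27.5% of all tested genes). PDZK1, a scaffold of the brush border (0.50, SE 0.19, edgeR adjusted p = 0.0442), lost its call without Sc Z1flag replicate 1 (0.29), Pc Z2flag replicate 2 (0.49) or either Sc Z2flag library (0.54 and 0.43), with adjusted p of 0.0816 to 0.186. LAPTM4B, which brings SLC7A5 and SLC3A2 to lysosomes, was lower (-0.75, SE 0.19), and 2 genes were lower without Pc Z1flag replicate 2. Of 4 tested amino acid transporters of other families, 1 was higher (0 without Pc Z1flag or Pc Z2flag replicate 1) and 2 lower. CTNS, the lysosomal cystine exporter, was lower (-1.65, SE 0.17, adjusted p = 4.33e-05), and so was SLC66A1, the lysosomal exporter of cationic amino acids (-0.57, SE 0.18, adjusted p = 0.0192), whose call was lost without Sc Z1flag replicate 2 (-0.48) or any 1 Z2flag library (-0.52 to -0.59), with adjusted p of 0.0572 to 0.0803.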

How the data were processed

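Stranded, rRNA-depleted RNA-seq libraries of 4 groups (2 libraries each) were sequenced in paired-end mode, per the labels. The authors deposited raw counts per Ensembl gene ID. Per the submitters' processing notes, reads went through STAR (2.5.2b), SAMtools and HTSeq on hg38. The sources used here do not give the annotation or the strand setting of HTSeq. Positions and exon lengths came from GENCODE v29. All 37 mitochondrial gene IDs stand at 0.

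Tests ran in edgeR 4.0.16 under R 4.3.3, with TMM scaling, the filterByExpr filter by group (minimum count 10, minimum total 15) and robust quasi-likelihood estimates. All 4 groups shared 1 model, which left 4 degrees of freedom. Benjamini-Hochberg adjustment covered 18240 genes. The SE is the size of the log2 fold change over the square root of F, so it can understate counting error at few counts. Ratios with fewer than 20 counts in a group have 95% exact binomial intervals, except where a group had 0 counts. Reads that overlap no feature, 20.6% to 32.0% of those listed, stayed out. The steps were tested on simulated data.

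The genes, gene lists and tests were chosen with earlier results of these data known. Values in all 8 libraries are given for genes called in both lines with mean CPM of at least 5, for genes of the apical, basolateral and growing-cell roles at that level, and for the 3 genes with the smallest p for a difference between lines. From each pathway list, up to 3 genes by adjusted p with mean CPM of at least 1, and the first of the other direction, are named. Genes outside this rule are named to account for the others, and some were chosen after their values were seen. The values of 1 untested gene are not reported here. Lists cover brush border and cytosolic peptidases (PEPB had no match), partners, other transporters, mTORC1 sensing, ATF4, 3 groups of enzymes and marker genes of the epithelium, proliferation and 6 other tissues.

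Alternatives were RLE and upper-quartile scaling, no filter, DESeq2 1.42.0, replicate blocks, the libraries of 1 line alone, and leaving out each library. A crossed block was added after the data were seen. Experiment numbers were not treated as pairs: deviations of same-numbered libraries correlated at -0.18 to 0.178. Tables and figures used Python 3.11.15, pandas 2.3.3, numpy 2.4.6 and matplotlib 3.10.9.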

Additional observations from a re-analysis of the deposited data

Results flagged for a closer look

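Among 54 sets of 4 libraries of 1 state (27 named genes, Pc and Sc), 7 held a library whose gap to the nearest other exceeded the 95% critical value of Dixon's test, taken on log2 CPM. Chance gives about 1 in 20 sets.

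Of the Pc libraries, Z2flag replicate 1 had 60.5 CPM of SLC36A1, with 123 to 128 CPM in the others, and 84.1 CPM of SLC7A11, with 33.0 to 36.5 CPM in the others. Of the Sc libraries, Z1flag replicate 1 was high for the glutamine carriers SLC38A1 (894 CPM, 695 to 705 CPM in the others) and SLC38A2 (614 CPM, 481 to 500 CPM), the glutamate carrier SLC1A3 (407 CPM, 217 to 241 CPM) and the cystine carrier SLC7A11 (84.2 CPM, 59.9 to 61.0 CPM). That library also had the highest share of reads overlapping no feature (32.0%, with 23.5% to 24.5% in the other Sc libraries), whose part in these values was not tested. Sc Z2flag replicate 1 had 52.9 CPM of SLC36A1, with 45.7 to 46.6 CPM in the others. On plain CPM the same 7 sets and 3 more passed, 10 in all. The 3 were SLC3A1 (18.7 CPM, 4.85 to 6.78 CPM in the others) and SLC38A11 (5.29 CPM, 0.551 to 0.97 CPM) in Pc Z1flag replicate 1, and SLC7A1 in Sc Z1flag replicate 1 (224 CPM, 149 to 160.0 CPM).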

How the results depend on the processing

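Over 118 gene results and 1737 values under the alternatives, 1571 kept their direction and side of the threshold, 90 lost a call, 41 gained one and 35 changed sign, none of these called. The cause was not tested. Leaving out each library gave 9 to 17 genes higher and 10 to 15 lower in Z1flag, 7 to 13 and 9 to 13 in Z2flag, and 15 to 17 and 13 to 17 over both lines. Between lines it gave 0 to 1 in each direction for the change after confluence, 0 to 2 higher and 0 to 4 lower within Pc and 0 within Sc. Calls over all tested genes also rose and fell with the library left out, so these ranges are not particular to the transporters. Each of these fits leaves 1 group with 1 library. Calls between lines appeared only without Pc Z1flag replicate 2, among all tested genes as well. With no filter, 1 gene (SLC38A11) was lower in Z2flag Pc cells (-2.03, adjusted p = 0.0203). Of all 35174 genes in that fit, 66 were called higher and 155 lower in this comparison. Upper-quartile scaling moved the median of all genes to 0.26 in Z1flag and 0.11 in Z2flag cells and split the Z1flag calls into 4942 higher and 2420 lower (3890 and 3490 under TMM). For Z2flag it gave 4098 and 2683 (3335 and 3529 under TMM), and SLC38A10 and SLC7A11 lost their calls in Z1flag cells (-0.42 and -0.79, with no allowance for that shift).

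Sign changes in Z1flag cells were, without Pc Z1flag replicate 1, SLC15A2 -0.37, SLC1A5 0.12, SLC3A2 0.12, SLC43A2 0.09 and SLC7A2 -0.21; without Pc Z1flag replicate 2, SLC36A4 0.06 and SLC38A6 0.15; without Sc Z1flag replicate 2, SLC43A2 0.11; and under upper-quartile scaling SLC38A6 0.02 and SLC43A2 0.13. In Z2flag cells SLC38A2 changed sign under RLE scaling (0.01), upper-quartile scaling (0.10), DESeq2 (0.01) and the fit of 1 line (0.01), and without Pc Z1flag replicates 1 (0.03) or 2 (0.03) or Pc Z2flag replicate 2 (0.21). SLC7A11 did so in the same 7 settings (0.02, 0.11, 0.02, 0.02, 0.04, 0.04 and 0.56). Others in Z2flag cells were SLC15A2 (0.01 upper quartile, 0.03 without Pc Z2flag replicate 1), SLC7A2 (0.09 upper quartile, 0.01 without Pc Z1flag replicate 1 or 2, 0.34 without Pc Z2flag replicate 1), and, without Pc Z2flag replicate 1, SLC38A11 0.09, SLC3A2 -0.14 and SLC6A20 -0.03. Without Sc Z2flag replicate 1, SLC36A4 was -0.03 and SLC6A19 0.15.

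For these genes, leaving out each library gave, in Z1flag cells, SLC15A2 -0.37 to 0.80, SLC1A5 -0.72 to 0.12, SLC36A4 -0.69 to 0.06, SLC38A6 -0.69 to 0.15, SLC3A2 -1.59 to 0.12, SLC43A2 -0.29 to 0.11 and SLC7A2 -0.21 to 0.63. In Z2flag cells it gave SLC15A2 -0.22 to 0.03, SLC36A4 -0.03 to 0.32, SLC38A11 -0.70 to 0.09, SLC38A2 -0.17 to 0.21, SLC3A2 -0.14 to 0.51, SLC6A19 -0.64 to 0.15, SLC6A20 -0.03 to 2.34, SLC7A11 -0.80 to 0.56 and SLC7A2 -0.42 to 0.34.

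A replicate block within each line gave 16 higher and 14 lower in Z1flag and 10 and 12 in Z2flag cells, as did a block shared by both lines. SLC6A18 in Z1flag (adjusted p = 0.054 and 0.0534) and SLC7A1 in Z2flag cells (0.0529 and 0.0515) then missed the threshold, and SLC38A8 passed in both lines. The crossed block called 0 genes between lines in Pc cells. Other settings that ended calls were RLE and upper-quartile scaling for SLC7A1 in Z2flag cells (-0.74 and -0.64), upper-quartile scaling for SLC66A1 over both lines (-0.38), and DESeq2 for SLC6A18 in Z1flag cells (2.82, adjusted p = 0.0999). So did the absence of a filter for SLC15A4 (0.56), and the fit of 1 line for SLC15A4 (0.67), SLC38A10 (-0.60) and SLC38A9 (-0.61), all in Z1flag cells. Calls were gained, beside those given in the report, with no filter for SLC38A8 (-1.72 in Z1flag, -2.01 in Z2flag) and SLC6A12 in Z2flag cells (0.96), under DESeq2 for SLC6A12 in Z2flag cells (1.07), and under upper-quartile scaling for SLC43A1 in Z2flag (0.53) and SLC7A9 in Z1flag cells (0.69).

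Depth limits the genes under about 1 CPM, and the 20 untested genes allow no statement on change. Protein sequences of the carriers were not used here, so identities between paralogs were not computed.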
